A study of Zea mays with 12 samples.

Results

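The alpha zeins are the main storage proteins of the maize kernel, and 10 gene models of this family were followed in developing seeds with and without a functional MSH7 gene. They were chosen by identifier, 4 as 19-kDa alpha zeins (Zm00001d019155, Zm00001d019156, Zm00001d019160 and Zm00001d030855) and 6 as 22-kDa alpha zeins (Zm00001d048808, Zm00001d048809, Zm00001d048847, Zm00001d048848, Zm00001d048849 and Zm00001d048850), out of 46430 listed in both deposited count tables. Transcript abundance had been measured by RNA-seq in whole seeds of the mutant zmmsh7-2 and of wild type, at 14 and 7 days after pollination (DAP). The 4 groups, each of 3 libraries, were mutant at 14 DAP, wild type at 14 DAP, mutant at 7 DAP and wild type at 7 DAP. The labels call the mutant an MSH7 knockout made by CRISPR, with the allele state written aa, and the wild type AA. They name no inbred background, do not say whether the mutant rests on 1 edited line, and do not say whether replicates came from separate ears or plants. A p-value here thus weighs a difference against library-to-library spread alone, and that spread may be technical. MSH7 belongs to the plant family of MutS mismatch-repair proteins. Its own transcript was not analysed here, since no source used here ties it to an identifier of the tables.

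Zeins are prolamins, storage proteins soluble in alcohol, and they are made in the starchy endosperm while the grain fills. They accumulate inside the endoplasmic reticulum as protein bodies, in which alpha zeins lie in the core and beta and gamma zeins form the outer layer. Alpha zeins are encoded by families of closely related gene copies, many of them in tandem clusters, and the 22-kDa genes are classical targets of the endosperm transcription factor Opaque2. The proteins are poor in lysine and tryptophan, so that the amount of alpha zein sets much of the nutritional quality of the grain. Because copies of a class are so alike, a read can fit several of them. The sources used here do not say how the counting treated such reads, so the value of a single gene model is uncertain. The sum of each class is therefore given beside it. Below, a class means its listed gene models only, and reads assigned to any copy outside the list are not in its sum. Whole seeds hold endosperm, embryo and maternal tissue, and in such bulk samples fewer endosperm cells and less RNA per cell cannot be told apart.

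Total counts at 14 DAP ranged from 16854595 to 20575609 over the mutant libraries and from 20066289 to 21932590 over the wild-type libraries. Those at 7 DAP ranged from 17502108 to 20441974 over the mutant libraries and from 19741682 to 20865544 over the wild-type libraries. Values at 14 DAP are CPM (counts set to a common library size) scaled by TMM, a factor that corrects for library composition. They are not divided by transcript length, so levels are compared between samples and not between gene models. Fold changes are on the log2 scale with a standard error (SE), and a gene model was called at an edgeR quasi-likelihood adjusted p below 0.05 (Benjamini-Hochberg over all genes tested). Wild-type replicate 3 at 7 DAP stood apart from the other libraries of that stage in its zein counts, and results that rest on it are given with and without it.

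At 14 DAP both classes were less abundant in mutant seeds. The 19-kDa gene models together had 9783, 10056 and 9815 CPM in the mutant libraries, against 12207, 12480 and 12034 CPM in wild-type seeds. The mean of the mutant was 0.808 of that of wild type (9885 ± 149 and 12240 ± 225 CPM, SD, n = 3 each). The 22-kDa gene models together had 10599, 10683 and 10708 CPM in the mutant libraries, against 13086, 12850 and 12951 CPM in wild-type seeds. Here the mutant mean was 0.823 of the wild-type mean (10663 ± 57.0 and 12962 ± 119 CPM, SD, n = 3 each). In neither class did the libraries of the genotypes overlap. As a share of all counts the 10 gene models took 2.12% ± 0.02 in mutant seeds and 2.45% ± 0.01 in wild-type seeds (SD, n = 3 each), without any scaling factor. With 3 libraries against 3 an exact permutation test cannot go below p = 0.1, and the sums were not tested.

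Of the 10 gene models 7 shared the direction of the sums. At 14 DAP all 10 were tested, 7 were lower, 2 were higher and 1 was not called, beside 32.1% of all 23811 genes tested that were lower and 31.7% that were higher (7642 and 7557 genes). Libraries of the genotypes did not overlap for the 9 called gene models, 7 of them lower and 2 higher in every mutant library, beside 33.2% and 33.1% of all genes tested. The median log2 fold change of the 10 was −0.28, against 0.01 over all genes tested. In the 22-kDa class 5 of 6 were lower and 0 higher, with a median of −0.28. In the 19-kDa class 2 of 4 were lower and 2 higher, with a median of −0.10. With library totals as the only scaling, 7 of the 10 were again lower and 3 higher, while over all genes 9532 were higher and 6389 lower, with a median log2 fold change of 0.10.

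**Figure D1:**
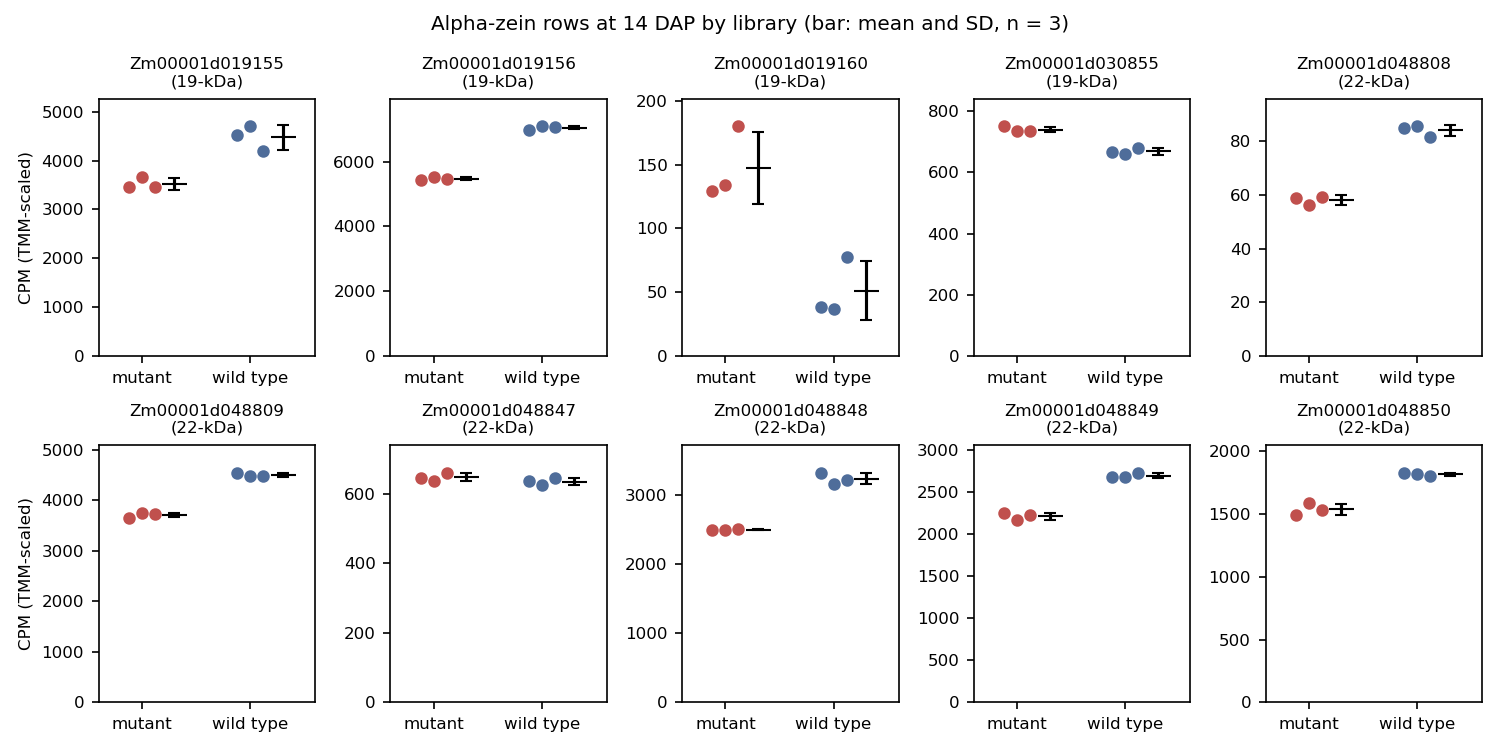
CPM with TMM scaling (vertical axes from 0, a different range in each panel) of each of the 10 alpha-zein gene models at 14 DAP. Points are single libraries, mutant left and wild type right, with the mean and SD of 3 libraries beside them. In 7 panels the mutant points lie below all wild-type points, in 2 panels (Zm00001d019160 and Zm00001d030855) above them, and in the panel of Zm00001d048847 they overlap.

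Among the 19-kDa alpha zeins, Zm00001d019156 had 5441, 5522 and 5447 CPM in mutant seeds, against 6982, 7085 and 7072 CPM in wild-type seeds. All mutant libraries were below all wild-type libraries, and the change was −0.37 on the log2 scale, with an SE of 0.02 (adjusted p = 4.88e-31 in edgeR). Zm00001d019155 had 3463, 3665 and 3453 CPM in the mutant, against 4519, 4699 and 4204 CPM in wild-type seeds, again without overlap (log2 fold change −0.34 with an SE of 0.04, adjusted p = 8.08e-06 in edgeR). Its replicates spread more than those of Zm00001d019156, with a coefficient of variation of 3.40% in the mutant and 5.61% in wild type, against 0.83% and 0.79%.

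The other 19-kDa gene models went the opposite way. Zm00001d030855 had 750.4, 735 and 735 CPM in the mutant, against 667, 659 and 680 CPM in wild-type seeds. All mutant libraries were above all wild-type libraries, but by little (log2 fold change 0.15 with an SE of 0.02, adjusted p = 1.66e-07 in edgeR). Over the other settings tried its log2 fold change ran between 0.13 and 0.23 and the adjusted p reached at most 5.09e-05.

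Zm00001d019160 showed the largest change of the 10 and the least even replicates. It had 129, 134 and 180.0 CPM in the mutant, against 38.5, 36.8 and 77.6 CPM in wild-type seeds. The mutant mean was higher by 1.54 on the log2 scale, with an SE of 0.36 (adjusted p = 0.0198 in edgeR), or 2.91-fold, and the lowest mutant library was above the highest wild-type library. Replicate 3 was the highest library in each genotype. The coefficient of variation was 19.1% in the mutant and 45.3% in wild type, where counting error alone would give 1.85% and 3.13%. Among gene models with a mean of at least 50 CPM the median was 2.54% in the mutant (4307 gene models) and 2.96% in wild type (4428 gene models). Only 3 of the 4307 and 2 of the 4428, itself included, were as variable or more so. The call was lost without mutant replicate 2 (adjusted p = 0.052), without mutant replicate 3 (0.0638) and when replicate 1 (0.0684) or replicate 2 (0.0637) of wild type was left out, and over all settings tried the edgeR or DESeq2 adjusted p lay between 0.000271 and 0.0684. The log2 fold change ranged from 1.36 to 1.97 over those settings.

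Among the 22-kDa alpha zeins, Zm00001d048809 had 3658, 3748 and 3732 CPM in the mutant, against 4546, 4479 and 4483 CPM in wild-type seeds (log2 fold change −0.28 with an SE of 0.02, adjusted p = 2.67e-22 in edgeR). Zm00001d048848 had 2489, 2487 and 2503 CPM in the mutant, against 3312, 3158 and 3212 CPM in wild-type seeds (log2 fold change −0.37 with an SE of 0.02, adjusted p = 1.61e-29 in edgeR). In both, every mutant library was below every wild-type library.

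The neighbouring identifiers Zm00001d048849 and Zm00001d048850 fell by similar amounts. Zm00001d048849 had 2254, 2171 and 2224 CPM in the mutant, against 2680.3, 2684 and 2729 CPM in wild-type seeds (log2 fold change −0.28, SE 0.02). Zm00001d048850 had 1493, 1583 and 1530.5 CPM in the mutant, against 1826, 1818 and 1800.3 CPM in wild-type seeds (log2 fold change −0.24, SE 0.02). Neither overlapped between genotypes, and their edgeR adjusted p-values were 1.15e-21 and 8.89e-17.

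Zm00001d048808 had the largest fall of the 10, from the fewest reads of its class. It had 59.1, 56.1 and 59.2 CPM in the mutant, against 85.0, 85.6 and 81.8 CPM in wild-type seeds (log2 fold change −0.54 with an SE of 0.04, adjusted p = 2.59e-20 in edgeR). Its replicates varied by 2.97% in the mutant and 2.42% in wild type, close to what counting error alone gives (2.96% and 2.43%).

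Zm00001d048847 was the exception in the 22-kDa class. It had 646, 638 and 660 CPM in the mutant, against 637, 624 and 644 CPM in wild-type seeds. The libraries overlapped, and the log2 fold change was 0.03 (SE 0.02, edgeR adjusted p = 0.302). With library totals as the only scaling it was called higher, at 0.12 (adjusted p = 3.15e-05). Its adjusted p over all settings ran between 3.15e-05 and 0.658.

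**Figure D2:**
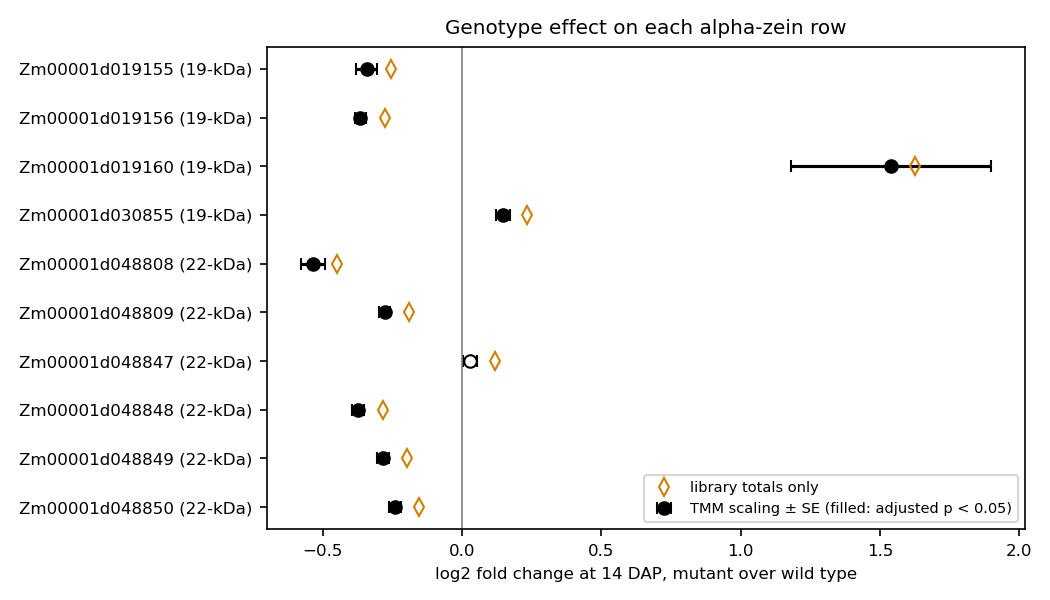
Log2 fold change at 14 DAP, mutant over wild type, for each alpha-zein gene model. Circles are TMM-scaled edgeR estimates with their SE (filled where called, open where not), and diamonds are the estimates with library totals as the only scaling. Under either scaling 7 gene models lie left of 0, from −0.54 to −0.24 with TMM, and Zm00001d019160 lies farthest right at 1.54.

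The make-up of each class needs no scaling between libraries. Of the 10 shares, 6 did not overlap between the genotypes, which is a description of 3 libraries against 3, with no test. For levels in CPM, 33.1% of all genes tested were higher and 33.2% lower in every mutant library at 14 DAP. So the count of 6 is not read as a trait of these gene models. Shares within a class also depend on one another. In the 19-kDa class, Zm00001d030855 gave 7.67%, 7.31% and 7.49% of the class counts in the mutant, against 5.47%, 5.28% and 5.65% in wild type. Zm00001d019160 gave 1.32%, 1.33% and 1.83% in the mutant, against 0.315%, 0.295% and 0.645% in wild type. Both shares were higher in every mutant library. The share of Zm00001d019156 was lower in every mutant library (55.3% ± 0.38 in the mutant and 57.6% ± 1.05 in wild type), and that of Zm00001d019155 overlapped (35.7% ± 0.68 in mutant seeds and 36.5% ± 1.42 in wild-type seeds, SD, n = 3 each).

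In the 22-kDa class, Zm00001d048847 gave 6.10%, 5.97% and 6.16% of the class counts in the mutant, against 4.87%, 4.85% and 4.97% in wild type. Its share was thus higher in every mutant library, while its own level did not differ beyond the spread. Zm00001d048848 took a smaller share in every mutant library (23.4% ± 0.10 in the mutant and 24.9% ± 0.37 in wild type), and so did Zm00001d048808 (0.545% ± 0.02 in mutant seeds and 0.649% ± 0.02 in wild-type seeds). The shares of Zm00001d048809, Zm00001d048849 and Zm00001d048850 overlapped between the genotypes, at 34.8% ± 0.29 in the mutant against 34.7% ± 0.12 in wild type for the first of these (SD, n = 3 each). These shares count the reads assigned to a gene model, so they also depend on how reads that fit several copies were assigned.

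**Figure D3:**
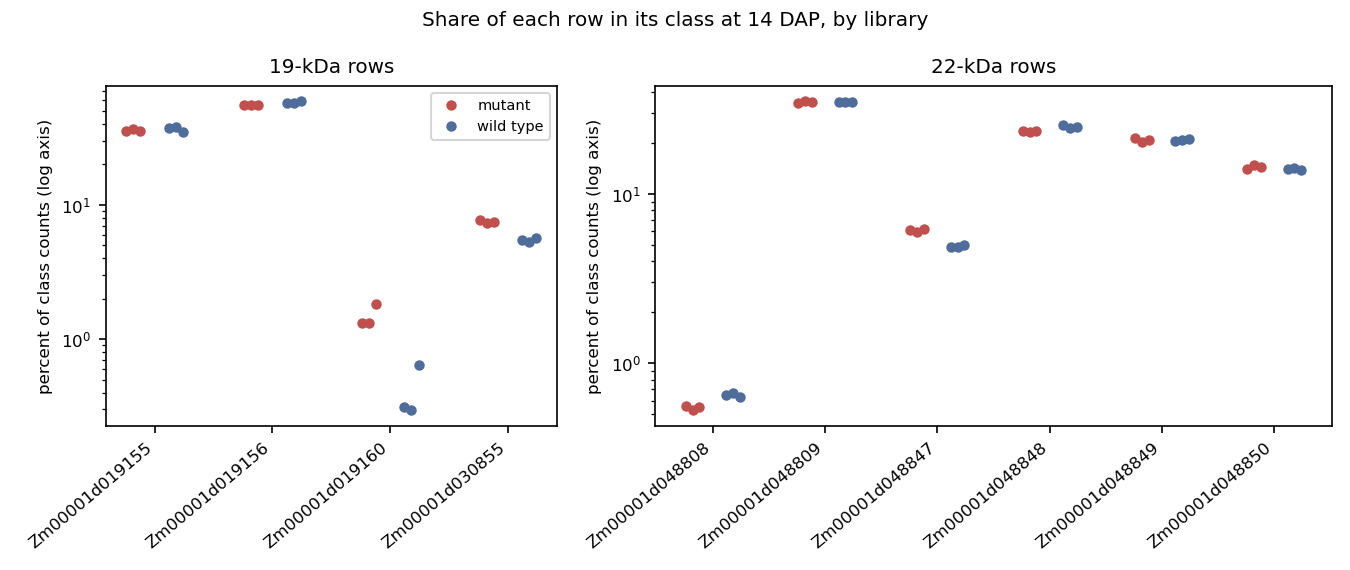
Share of each gene model in the counts of its class at 14 DAP (percent, log axis), 1 point per library, mutant in red at the left and wild type in blue at the right. The shares of Zm00001d019160, Zm00001d030855 and Zm00001d048847 are higher in all mutant libraries, and those of Zm00001d019156, Zm00001d048808 and Zm00001d048848 are lower.

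The balance between the classes did not separate the genotypes. Counts of the 22-kDa class divided by those of the 19-kDa class gave 1.08, 1.06 and 1.09 in the mutant libraries, against 1.07, 1.03 and 1.08 in wild type. The means were 1.08 ± 0.01 in mutant seeds and 1.06 ± 0.03 in wild-type seeds (SD, n = 3 each), and the libraries overlapped. Both classes thus stood at a similar part of their wild-type level, with ratios of 0.808 and 0.823.

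Across the stages the 10 alpha-zein gene models together held between 2.10% and 2.45% of the counts in each library of 14 DAP, against 18 to 145 counts in each library of 7 DAP. Over the 3 mutant libraries the 19-kDa class held 582966 counts at 14 DAP, against 54 at 7 DAP. In wild type it held 739884 counts at 14 DAP, against 72 at 7 DAP. On the TMM scale of all 12 libraries these are ratios of 13352 in the mutant (95% counting interval 10233 to 17774) and 12585 in wild type (9993 to 16084). The 22-kDa class held 628611 counts at 14 DAP, against 57 at 7 DAP, in the mutant (ratio 13640, interval 10528 to 18009), and 783870 counts at 14 DAP, against 123 at 7 DAP, in wild type (ratio 7805, interval 6541 to 9391). Without wild-type replicate 3 at 7 DAP the wild-type ratios were 33361 (21109 to 56291) for the 19-kDa class and 19881 (14083 to 29066) for the 22-kDa class. The intervals are exact and cover counting error only.

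**Figure D4:**
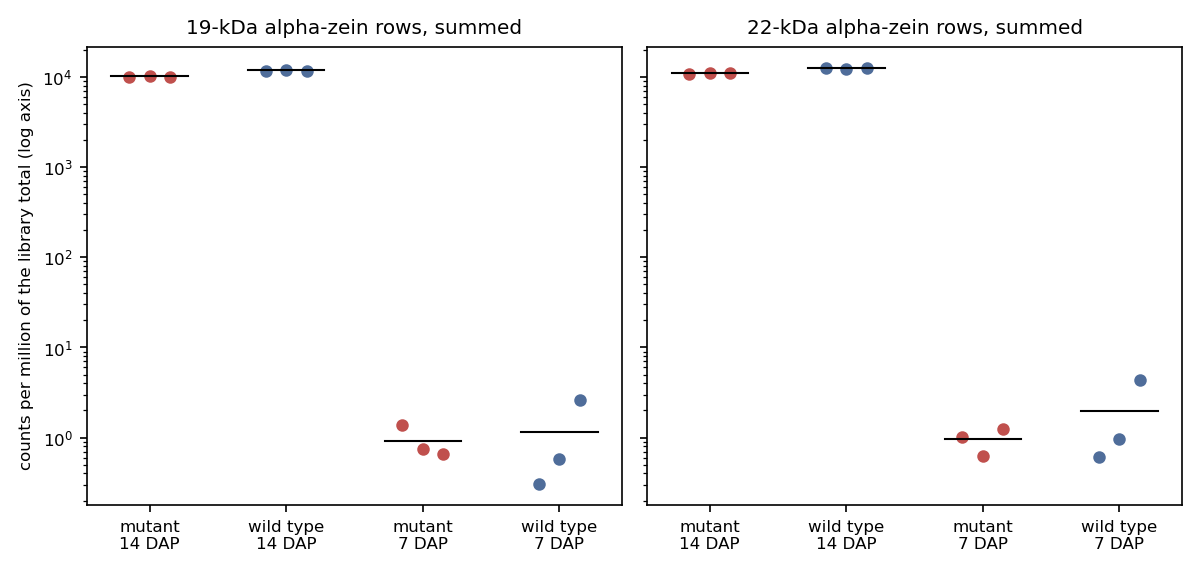
Summed counts of the 19-kDa (left) and 22-kDa (right) alpha-zein gene models as CPM of the library total (log axis), 1 point per library, with lines at the group means. The libraries of 14 DAP lie between 10065 and 12684 CPM and those of 7 DAP at 4.41 CPM or less, and the highest point at 7 DAP in each panel is wild-type replicate 3.

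All 10 gene models were called higher at 14 than at 7 DAP in the mutant, where 39.3% of 25344 genes tested were higher, and all 10 in wild type, where 40.8% were higher. Every one passed the count filter through the 14 DAP libraries, except that Zm00001d019156 also passed at 7 DAP, so this count was largely fixed by the filter. The tables of the stages are separate, so a batch between them cannot be told apart from stage. For 2 gene models wild type had 0 counts at 7 DAP, and against a floor of 3 counts per library Zm00001d019160 was at least 419-fold higher and Zm00001d048808 at least 692-fold higher at 14 DAP. In the mutant each had 1 count at 7 DAP, which gives ratios of 10814 (95% counting interval 1940 to 427159) and 4230 (759 to 167121).

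At 7 DAP the alpha zeins were at the edge of detection. Over all 10 gene models the mutant libraries held 49, 24 and 38 counts, against 18, 32 and 145 counts in wild type. The mutant libraries lay within the range of wild type, and the wild-type range was set by replicate 3. In that library Zm00001d048809 had 34 counts, against 5 and 7 in the other wild-type libraries, and Zm00001d048848 had 29, against 4 and 3. Zm00001d019155 had 26 counts there, against 3 and 5, and Zm00001d019156 had 24, against 3 and 6.

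**Figure D5:**
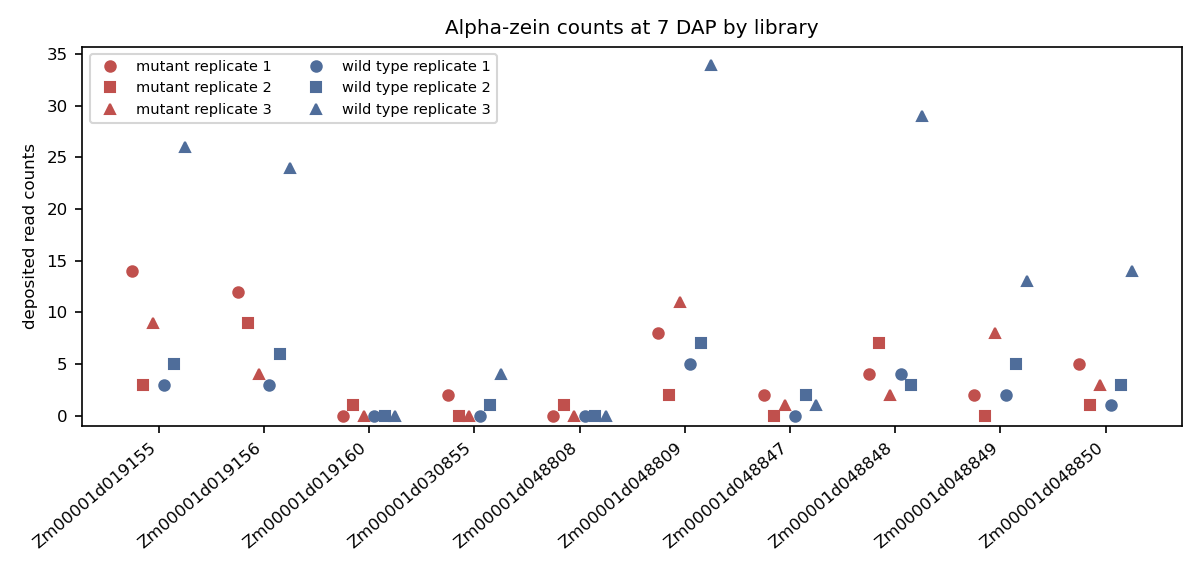
Deposited read counts of each alpha-zein gene model at 7 DAP (vertical axis), 1 symbol per library, mutant in red and wild type in blue. Wild-type replicate 3 (blue triangles) is the highest library for 7 of the 10 gene models, up to 34 counts, and no other library exceeds 14.

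Only 1 of the 10 gene models, Zm00001d019156, passed the count filter at 7 DAP, and it was not called, beside 71.1% of 24096 genes tested that were called in either direction. It had 12, 9 and 4 counts in the mutant, against 3, 6 and 24 in wild type (log2 fold change −0.37 with an SE of 0.50, adjusted p = 0.517 in edgeR). Without wild-type replicate 3 the sign turned (0.89, adjusted p = 0.224). With no filter Zm00001d048809 and Zm00001d048848 were called lower in the mutant (−1.10, adjusted p = 0.037, and −1.41, adjusted p = 0.0265), beside 26.5% of the 33200 genes then tested that were lower. With no filter and without wild-type replicate 3 none of the 10 was called, and the values of these gene models were 0.22 (adjusted p = 0.81) and 0.32 (adjusted p = 0.79). For the 1 gene model that passed the filter edgeR's p was above 0.05 also before adjustment, and DESeq2 gave an adjusted p for 6 of the 10 and called 0. At this depth no genotype difference in alpha zeins at 7 DAP was detectable that did not rest on wild-type replicate 3.

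Whether the genotype effect differed between the stages was asked in a fit of all 12 libraries. None of the 10 gene models was called, where 46.8% of 25344 genes were called in either direction. With all libraries the count at an unadjusted p below 0.05 was 0, and DESeq2 called 0 of 10. When each replicate was left out in turn, edgeR called 0 to 1 higher and 0 to 1 lower. The SEs of the differences with all libraries lay between 0.39 and 2.07 on the log2 scale. With all libraries the few reads at 7 DAP thus could not show a difference of the size seen at 14 DAP. The calls made with a replicate left out were not followed to single gene models. The lower alpha-zein level of the mutant at 14 DAP is therefore not shown to be particular to that stage.

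The gene models most like the alpha zeins in their profile were looked for among 4912 others with a mean of at least 50 CPM at 14 DAP. Likeness was the Euclidean distance between profiles of log2(CPM + 0.5) over the 12 libraries, each centred on its mean. For both classes the nearest were Zm00001d020592, at a distance of 1.15 from the 19-kDa sum and 0.822 from the 22-kDa sum, and Zm00001d005793, at 1.69 and 1.32. Then came Zm00001d048851, Zm00001d048816 and Zm00001d048817, between 2.11 and 2.61 from either sum. The sources used here give no product for these identifiers.

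Of these 5 gene models 4 were called lower in the mutant at 14 DAP and the other higher. Of all 23811 genes tested, 32.1% were lower and 31.7% higher. Zm00001d020592 had 19306 ± 159 CPM in mutant seeds and 26799 ± 815 CPM in wild-type seeds (SD, n = 3 each), and its log2 fold change was −0.47 (SE 0.02, adjusted p = 5.76e-41 in edgeR). Zm00001d005793 had 5328 ± 75.9 CPM in mutant seeds and 8978 ± 230.3 CPM in wild-type seeds (log2 fold change −0.75 with an SE of 0.02, adjusted p = 2.06e-55 in edgeR). Zm00001d048851 and Zm00001d048816 changed by −0.34 and −0.31. The log2 ratios of the class sums were −0.31 for the 19-kDa and −0.28 for the 22-kDa gene models. Zm00001d048817 was slightly higher in the mutant, by 0.06 (SE 0.02, edgeR adjusted p = 0.0206). The profiles include the libraries of both stages. The change with stage, by far the larger, and the genotype effect at 14 DAP are thus both part of the likeness. Their parts in the distance were not separated, and these values are a description.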

How the data were processed

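The authors deposited 1 table per stage with whole-number read counts per gene, not normalized. The submitters' processing notes name the build B73 RefGen_v4 and, in no stated order, featureCounts 1.6.4, HISAT2 2.2.1, Trimmomatic 0.39, DESeq2 and StringTie 1.3.6. The sources used here give neither strand nor the treatment of multi-mapping reads. Columns were matched to samples by their descriptions. The RefSeq gene table used here (assembly Zm-B73-REFERENCE-NAM-5.0) holds 0 of the 44146 nuclear identifiers, so no other gene was named, the planned lists of other zeins, regulators and cell-type markers were not run, and no sequence or coordinate is given. The members and lists were chosen with earlier results of these data known.

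Tests used edgeR 4.0.16 in R 4.3.3 (quasi-likelihood, robust, TMM, filterByExpr at a minimum count of 10) on all genes, in 6 libraries of a stage for genotype and in all 12 for stage and the difference of effects. The SE was taken as the size of the log2 fold change over the root of the F statistic. The fits were tested on simulated data. Alternatives were RLE factors, library totals, factors without the 10 gene models, no filter, a filter of 1 CPM in every library, DESeq2 1.42.0, a fit of 12 libraries, each replicate left out, and a replicate block. Leaving out wild-type replicate 3 at 7 DAP together with the filter, and from the ratios between stages, was chosen after the data were seen. Named genes were all members and, for each class, the 5 most similar profiles. Intervals are exact at 95% and cover counting error only.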

Additional observations from a re-analysis of the deposited data

How the results depend on the processing

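At 14 DAP, 7 gene models were called lower under every alternative run, and none of the 10 log2 fold changes turned in sign. The size of their adjusted p depended on the fit. In edgeR with all 12 libraries it was 0.000162 for Zm00001d019156, 0.000592 for Zm00001d048848 and 0.00286 for Zm00001d048809. These are far above the values from 6 libraries, while that of Zm00001d048808 was 5.21e-19. The number called higher was 2, between 1 and 2 when each replicate was left out (Zm00001d019160 lost its call in 4 of 6 cases) and 3 with library totals. Library totals moved the log2 ratio of the class sums to −0.22 for the 19-kDa and −0.19 for the 22-kDa gene models, against −0.31 and −0.28 with TMM, and leaving out a replicate gave −0.32 to −0.29 and −0.29 to −0.27. The ratio of the classes stayed between 1.07 and 1.09 in the mutant and between 1.05 and 1.07 in wild type when a replicate was left out. At 7 DAP no gene model was called lower, but 2 were with no filter, and 0 to 1 when a replicate was left out. Zm00001d019156, at −0.37 with all libraries, was at 0.89 without wild-type replicate 3, with and without the filter. Over left-out replicates it lay between −0.79 and 0.89. The log2 ratio of each class sum at 7 DAP, mutant over wild type, ran from −0.85 to 1.01 (19-kDa) and from −1.53 to 0.25 (22-kDa) over left-out replicates. For the difference of effects, leaving out a replicate called 0 to 1 higher and 0 to 1 lower. The causes of these shifts were not tested. The labels do not say whether replicate numbers pair the libraries. Deviations of same-numbered libraries correlated between −0.005 and 0.045, and those of differently numbered libraries between −0.049 and 0.014. These values do not settle whether the libraries are paired. With the replicate block the counts of calls did not change, at 7 lower and 2 higher at 14 DAP and 10 higher at 14 over 7 DAP in each genotype. The stricter filter left 0 of the 10 in the fits of 7 DAP and of 12 libraries, so it gave no value there.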

Other observations

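Wild-type replicate 3 at 7 DAP was looked at further after its values had been seen. It held 43 gene models with at least 10 counts and at least 3-fold the CPM of both other wild-type libraries. Of these, 5 were among the 10 listed alpha zeins. The other 5 libraries of 7 DAP held between 26 and 38 such gene models against the other libraries of their group, with 0 of the 10. The 5 alpha zeins are among those whose counts prompted the look. Leaving only the 10 listed gene models out, 7 of its 38 remaining gene models were among the 69 others with at least 1000 CPM at 14 DAP. Each other library of 7 DAP had 0. Whether any of the 7 is another zein is not known, as the sources used here name no other gene. Within its 54 counts of the 19-kDa class, Zm00001d019156 took 44.4% (95% exact binomial interval 30.9 to 58.6) and Zm00001d019155 48.1% (34.3 to 62.2). Within its 91 counts of the 22-kDa class, Zm00001d048809 took 37.4% (27.4 to 48.1) and Zm00001d048848 31.9% (22.5 to 42.5). What set this library apart was not tested.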
